A study of Mus musculus with 9 samples.

Results

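The disease-associated microglia genes are 10 genes that activated phagocytes of the brain switch on: Trem2, Tyrobp, Apoe, Lpl, Cst7, Itgax, Clec7a, Axl, Spp1 and Lgals3. They were taken by name from a table of 21853 protein-coding genes in mouse brain, with earlier results of these data known. Of the 10, 9 were found and all 9 passed the filter on low values that left 15411 genes for testing, and Clec7a was not analysed here. The study compared 3 groups of 3 libraries each of poly(A) RNA. WT-Control libraries came from wild-type mice and HD-Control libraries from N171-82Q mice, a transgenic model of Huntington's disease that expresses a fragment of mutant huntingtin. Both groups received the same control virus, an AAV that expresses mCherry from the GFAP promoter, which is active in astrocytes. HD-WNT5B libraries came from N171-82Q mice given an AAV in which that promoter drives WNT5B together with mCherry. All 3 groups thus carried an injected virus and mCherry. Virus was injected into the striatum according to the series description, whereas the labels name only brain, and no age, sex or animal number is given. Whether replicate libraries are separate animals is not stated, so the p-values below measure the spread between libraries, which may be technical.

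As background, microglia in damaged or degenerating brain shift from a resting, homeostatic state towards a phagocytic, lipid-handling state. TREM2, a lipid-sensing receptor at the cell surface, signals through the adaptor DAP12, the product of Tyrobp, and is needed for the full shift. In models of amyloid disease the homeostatic genes fall while Apoe, Lpl, Cst7, Itgax, Clec7a, Axl, Spp1 and Lgals3 rise. Several of the 10 are not restricted to microglia: astrocytes are a main source of Apoe, neurons and glia express Lpl, and border macrophages, astrocytes or vessel cells can express Axl and Spp1. In these bulk libraries fewer microglia and less RNA per microglial cell cannot be told apart, and a change in a shared gene cannot be assigned to a cell type.

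The promoters of 4 members whose levels moved in different directions are shown because they carry the same short motif. Each is the 250 bases before the most upstream gene start in RefSeq (GRCm38.p6), read 5′ to 3′ along the gene's strand, with motifs in capitals. In Apoe, Axl and Spp1 the capitals mark GAGGAA or its reverse complement, the core that PU.1, the main transcription factor of macrophages, binds. In Trem2 they mark that core and, near the 3′ end, TGANTCA, a loose form of the AP-1 motif in which N is any base, here A. The Trem2 window is chr17:48346151-48346400 on the plus strand, Apoe is chr7:19699189-19699438 and Axl chr7:25788734-25788983 on the minus strand, and Spp1 is chr5:104434861-104435110 on the plus strand.
Trem2: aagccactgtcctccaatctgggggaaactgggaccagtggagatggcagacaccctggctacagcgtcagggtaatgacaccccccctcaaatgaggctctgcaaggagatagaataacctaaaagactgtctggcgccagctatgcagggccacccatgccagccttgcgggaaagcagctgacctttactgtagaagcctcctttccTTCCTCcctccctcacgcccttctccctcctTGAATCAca
Apoe: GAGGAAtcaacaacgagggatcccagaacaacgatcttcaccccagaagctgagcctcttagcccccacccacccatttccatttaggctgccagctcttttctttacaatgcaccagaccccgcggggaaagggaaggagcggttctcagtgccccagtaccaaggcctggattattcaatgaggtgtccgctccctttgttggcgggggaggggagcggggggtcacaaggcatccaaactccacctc
Axl: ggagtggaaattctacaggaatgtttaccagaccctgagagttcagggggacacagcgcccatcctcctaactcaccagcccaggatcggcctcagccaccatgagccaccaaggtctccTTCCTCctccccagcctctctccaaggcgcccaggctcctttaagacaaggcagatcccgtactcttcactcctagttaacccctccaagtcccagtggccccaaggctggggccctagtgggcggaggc
Spp1: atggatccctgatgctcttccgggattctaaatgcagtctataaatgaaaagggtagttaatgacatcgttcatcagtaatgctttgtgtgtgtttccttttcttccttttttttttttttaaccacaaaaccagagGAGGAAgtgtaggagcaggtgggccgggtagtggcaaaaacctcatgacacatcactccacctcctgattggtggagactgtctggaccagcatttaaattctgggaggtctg
Of the 8 members with a RefSeq promoter entry, 5 held GAGGAA on either strand (Apoe, Axl, Clec7a, Spp1 and Trem2), against 23.25% of 32851 promoter windows of the same length. The loose AP-1 form was found in 2 of 8 (Itgax, with G as the central base, and Trem2, with A) against 6.749% of windows. Stricter forms of it were not counted. The E-box CACGTG, bound by lysosomal regulators such as TFEB, was found in 0 of 8 against 6.021%. None of the 3 motifs overlaps another in the windows shown. A match is a description of letters and shows no binding.

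Before the members are described, the HD-WNT5B libraries need a separate account, because they stand apart from the other 6. Values are the authors' normalised read values, estimated reads divided by 1 factor per library, and low values fall on whole multiples of that factor. Dividing by it gives 67.8 to 77.8 M reads in WT-Control, 69.8 to 90.6 M in HD-Control and 37.3 to 52.1 M in HD-WNT5B libraries. Genes with 1 to 5 reads number 1284 to 1335, 1328 to 1443 and 134 to 140 in the 3 groups. The plot of genes by number of reads shows that shortage at the low end. Replicates scatter more in HD-WNT5B: among genes whose group mean reached 100, the SD of log2(value + 3) had a median of 0.039 in WT-Control, 0.032 in HD-Control and 0.228 in HD-WNT5B. The change of a gene in HD-WNT5B also goes with the length of its transcript. Against HD-Control, the median log2 fold change was 2.02 for genes with coding transcripts under 1000 bases, 0.81 from 1000 to under 2000, -0.18 from 2000 to under 4000 and -0.89 for 4000 and over, while the same 4 medians for HD-Control against WT-Control were 0.10, 0.08, 0.02 and -0.01. The HD-WNT5B differences of the members and of the other genes named below, and the counts of their lists, are therefore given also with the trend on transcript length and GC content removed from every library, an alternative chosen after seeing the data. Such a removal also takes away any true change that goes with length or GC. Wnt5b itself, a check on the virus label, was 74.6, 63.8 and 57.7 in WT-Control, 63.8, 44.2 and 49.3 in HD-Control and 184, 22.5 and 212 in HD-WNT5B libraries. Its difference between HD-WNT5B and HD-Control was not called (log2 0.88, SE 0.73, adjusted p = 0.298), and HD-WNT5B 2 had the lowest value of all 9. The labels do not give the species of the cargo, and a foreign coding sequence need not be counted under the mouse gene. Without HD-WNT5B 2 the members called between HD-WNT5B and HD-Control were again Apoe, Lpl and Trem2 higher and Axl and Spp1 lower.

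**Figure D1:**
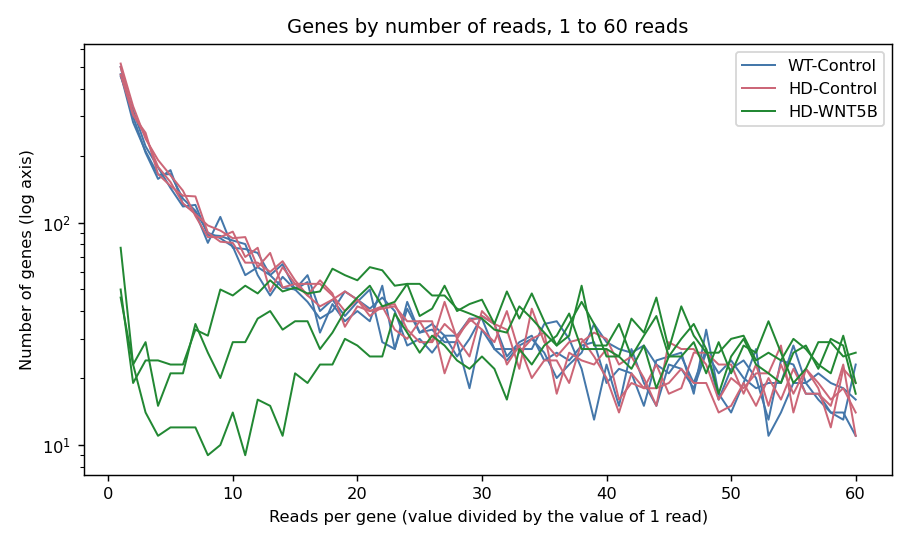
Number of genes (log axis) at each number of reads from 1 to 60, with 1 line per library. The 3 HD-WNT5B lines lie far below the other 6 at the low end (134 to 140 genes at 1 to 5 reads against 1284 to 1443) and meet them at about 20 to 30 reads.

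In HD-Control against WT-Control, the members did not move as a block. Lgals3, Lpl and Apoe rose, with Lgals3 5.15-fold, Lpl 1.96-fold and Apoe 1.36-fold higher. Trem2 fell 1.80-fold and Tyrobp 1.38-fold. Spp1 was higher and Axl and Itgax lower in all 3 HD-Control libraries without passing the test, and Cst7 overlapped. In limma fitted on log2(value + 3) to all 9 libraries and adjusted with Benjamini-Hochberg over all genes tested, 3 of the 9 members were called higher and 2 lower at adjusted p under 0.05, against 45.1% of all genes called (24.5% higher and 20.7% lower). The members' median log2 fold change was 0.33 against 0.02 for all genes tested. The groups did not overlap for 8 of the 9 members, which 84% of all genes also show.

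Between HD-Control and HD-WNT5B, Lpl rose 8.75-fold, and Spp1 and Axl fell 4.98-fold and 1.63-fold. These 3 changes kept their direction and call with the length and GC trend removed. Trem2 rose 2.66-fold and Apoe 2.57-fold on the deposited values, and neither was called with that trend removed (log2 -0.22, adjusted p = 0.0953 for Trem2, and 0.01, adjusted p = 0.664 for Apoe). Of the 9 members 3 were called higher and 2 lower, against 77.5% of all genes called (35.8% higher and 41.7% lower). Their median log2 fold change was 0.10 against -0.23 for all genes, and -0.67 against -0.132 with the length and GC trend removed. With the trend removed, 1 member was called higher (Lpl) and 4 lower (Axl, Lgals3, Spp1 and Tyrobp), against 35.9% and 37.7% of all genes. The groups did not overlap for 5 members, the same 5 that were called, against 78.7% of all genes.

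Set against WT-Control, HD-WNT5B libraries held 4 members called higher (Apoe, Lgals3, Lpl and Trem2) and 3 lower (Axl, Spp1 and Tyrobp), against 77.9% of all genes called (35.9% higher and 42.1% lower). The members' median was 0.57 against -0.245 for all genes, and -0.95 against -0.135 with the length and GC trend removed. The groups did not overlap for the same 7 members, against 79.4% of all genes. With the length and GC trend removed, Apoe, Lgals3 and Lpl were called higher and Axl, Spp1, Trem2 and Tyrobp lower, against 36.2% and 38.4% of all genes. This contrast shares its libraries with the other two, so it is no separate evidence. Lpl was 17.1-fold and Apoe 3.49-fold higher than in wild-type brain on the deposited values, and Axl was 2.06-fold lower.

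**Figure D2:**
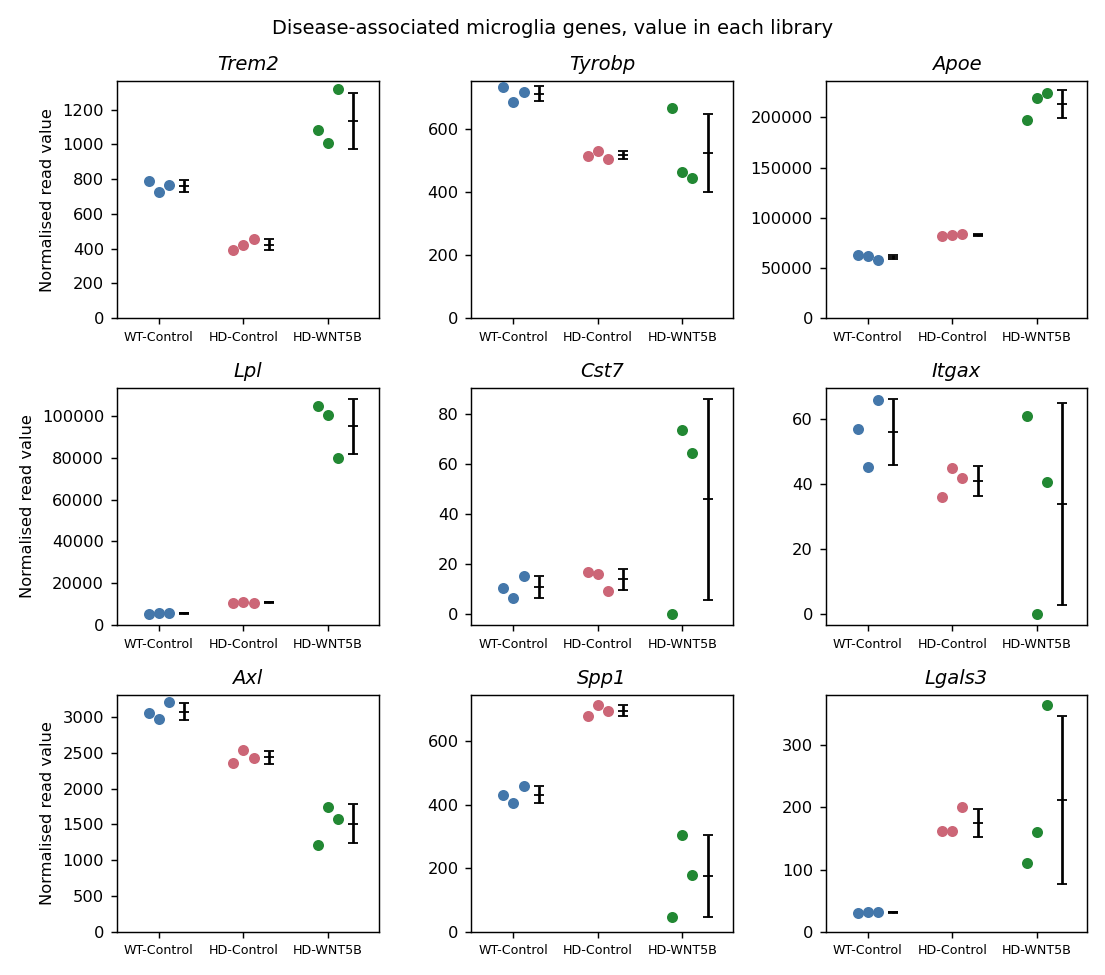
Normalised read value (linear axis, 1 panel and scale per gene) of the 9 members in each library; points are libraries, and the bars give mean and SD over n = 3. Lpl is 79710 or above in each HD-WNT5B library and 10885 or below in the other 6, Trem2 is lowest in the HD-Control libraries, and Cst7 and Itgax each have a library at 0 among the HD-WNT5B points.

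Trem2 (chr17:48346401-48354147, plus strand) encodes the receptor that gives the programme its name. Its value was 791, 725 and 766 in WT-Control, 389.9, 423 and 455 in HD-Control, and 1082, 1007 and 1319 in HD-WNT5B libraries. The 3 groups did not overlap, with HD-Control lowest and HD-WNT5B highest. The log2 difference of HD-Control from WT-Control was -0.85 (SE 0.13, adjusted p = 7.3e-04), and the call held without any 1 of the 9 libraries. HD-WNT5B was higher than HD-Control by 1.41 (SE 0.13, adjusted p = 8.1e-06) and higher than WT-Control by 0.57 (adjusted p = 0.00279). The Trem2 transcript is short, 1088 bases, and the direction of both HD-WNT5B differences turned when the length and GC trend was removed: -0.22 (SE 0.11, adjusted p = 0.0953) against HD-Control and -1.13 (SE 0.11, adjusted p = 1.6e-05) against WT-Control. Scaling to equal library totals also brought the difference from WT-Control to -0.01 (adjusted p = 0.942). The fall in HD-Control was -0.91 (adjusted p = 2.2e-04) with the length and GC trend removed.

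Tyrobp (chr7:30413760-30417585, plus strand) encodes DAP12, the adaptor through which TREM2 and related receptors signal. Its value was 733, 687 and 719 in WT-Control, 516, 532 and 505 in HD-Control, and 667, 464 and 444 in HD-WNT5B libraries. All HD-Control libraries lay below all WT-Control libraries, and HD-WNT5B 1 lay above the HD-Control range with the other two below it. The fall in HD-Control was -0.46 (SE 0.16, adjusted p = 0.0454), close to the threshold, and leaving out any 1 of the 6 WT-Control and HD-Control libraries ended the call (adjusted p = 0.0972 to 0.129). HD-WNT5B against HD-Control gave -0.003 (SE 0.16, adjusted p = 0.987). With 597 bases Tyrobp has the shortest transcript of the 9, and with the length and GC trend removed this difference became -2.41 (SE 0.21, adjusted p = 8.6e-06). Scaled to equal library totals it was -0.55 (adjusted p = 0.011). Against WT-Control, HD-WNT5B was lower by -0.46 (SE 0.16, adjusted p = 0.0261), a call that ended without any 1 WT-Control library or without HD-WNT5B 2 or 3 (adjusted p = 0.055 to 0.0767). With the length and GC trend removed that difference was -3.02 (SE 0.21, adjusted p = 1.9e-06). The ratio of Trem2 to Tyrobp values was 1.06 to 1.08 in WT-Control, 0.756 to 0.901 in HD-Control and 1.62 to 2.97 in HD-WNT5B, so receptor and adaptor did not keep 1 ratio over the groups.

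Other genes of TREM2 and DAP12 signalling were read from a list of 14, all tested. Counts in this and the later lists stand against the shares of all genes called. These were 24.5% higher and 20.7% lower in HD-Control against WT-Control, and 35.8% and 41.7% in HD-WNT5B against HD-Control. With the length and GC trend removed, the latter were 35.9% and 37.7%. In HD-Control 1 was called higher and 3 lower than in WT-Control, with a median of -0.47. Sirpa, which encodes an inhibitory receptor for CD47, fell by 0.35 (adjusted p = 2.3e-05). Adam10, whose product sheds the outer part of TREM2, fell by 0.68 (adjusted p = 2.5e-04). Inpp5d, which encodes the lipid phosphatase SHIP1, fell by 0.56 (adjusted p = 0.00973), and Grb2, an adaptor, rose by 0.26 (adjusted p = 0.0049). Going from HD-Control to HD-WNT5B, 4 were called higher and 5 lower, with a median of -0.61, and 4 and 2 with the length and GC trend removed. Hcst, which encodes the sister adaptor DAP10, rose from 9.40 ± 5.23 to 338 ± 106 (mean ± SD, n = 3; log2 4.82, adjusted p = 3.7e-06), and its rise was 1.78 (adjusted p = 0.00285) with the trend removed.

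Apoe (chr7:19696109-19699188, minus strand) encodes the main lipid carrier of the brain and a TREM2 ligand. It had the highest level of the 9 per kilobase of transcript in every group. Its value was 62553.5, 62284 and 58385 in WT-Control, 81919, 83149 and 83588 in HD-Control, and 197114, 219222 and 223884 in HD-WNT5B libraries. The groups did not overlap and rose in that order. HD-Control was 0.44 above WT-Control on the log2 scale (SE 0.05, adjusted p = 1.8e-04), and 0.41 (adjusted p = 9.2e-06) with the length and GC trend removed. HD-WNT5B was 1.36 above HD-Control (SE 0.05, adjusted p = 2.7e-08) and 1.80 above WT-Control (adjusted p = 4.5e-09). With the trend removed these became 0.01 (SE 0.03, adjusted p = 0.664) and 0.43 (SE 0.03, adjusted p = 1.3e-06), so the rise over WT-Control kept its call and the rise over HD-Control did not. Apoe took 0.107 to 0.114% of the summed value in WT-Control, 0.147 to 0.150% in HD-Control and 0.241 to 0.280% in HD-WNT5B libraries.

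Lpl (chr8:68880491-68907448, plus strand) encodes lipoprotein lipase, which frees fatty acids from lipoproteins. Its value was 5399, 5512.5 and 5604 in WT-Control, 10734, 10884.5 and 10689 in HD-Control, and 104658, 100354 and 79709.5 in HD-WNT5B libraries. Replicates lay close together in WT-Control and HD-Control, and each HD-WNT5B library was far above every other library. The log2 fold change was 0.97 in HD-Control against WT-Control (SE 0.09, adjusted p = 5.2e-05), 3.13 in HD-WNT5B against HD-Control (SE 0.09, adjusted p = 5.0e-09) and 4.10 in HD-WNT5B against WT-Control (SE 0.09, adjusted p = 9.3e-10). Lpl has a long transcript of 4115 bases, in the class whose median fell in HD-WNT5B, and with the length and GC trend removed its rises were 0.96, 3.87 and 4.83. It was higher than 96.6% of all genes tested in the change from HD-Control to HD-WNT5B. The ratio of Lpl to Apoe values was 0.0863 to 0.0960 in WT-Control, 0.128 to 0.131 in HD-Control and 0.356 to 0.531 in HD-WNT5B, with no overlap between groups.

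Genes around these lipid members moved both ways, as did all genes tested. Of all genes, 24.5% were called higher and 20.7% lower in HD-Control. In HD-WNT5B against HD-Control the shares were 35.8% and 41.7% (35.9% and 37.7% with the length and GC trend removed). Of 12 tested genes for other apolipoproteins, their receptors and lipid export, 5 rose and 3 fell in HD-Control, and 4 rose and 7 fell in HD-WNT5B against HD-Control (6 and 6 with the length and GC trend removed). Apod, a lipocalin-type apolipoprotein of glia, rose from 10057 ± 56.3 in WT-Control to 75226 ± 548 in HD-Control (log2 2.90, adjusted p = 1.0e-10) and to 311250.0 ± 2199 in HD-WNT5B (log2 2.05, adjusted p = 3.4e-11; 2.06 with the trend removed). Apoc1, a small apolipoprotein beside Apoe in the genome, rose by 1.76 (adjusted p = 1.1e-04) and then by 3.81 (adjusted p = 1.5e-07), the second being 1.21 (adjusted p = 4.7e-04) with the trend removed. Clu, clusterin, rose by 0.12 (adjusted p = 0.02) and 1.96 (adjusted p = 2.6e-10; 1.19 with the trend removed), and the receptor gene Lrp1 was not called in HD-Control and fell by 1.48 (adjusted p = 4.7e-08) in HD-WNT5B (by 1.35 with the trend removed). Among 7 tested partners of lipoprotein lipase, 1 rose and 1 fell in HD-Control: Angptl4, a secreted inhibitor of the lipase, rose from 66.7 ± 9.66 to 467 ± 23.5 (log2 2.76, adjusted p = 3.7e-05), and Lmf1, the factor that folds the lipase, fell by 0.78 (adjusted p = 1.8e-04). Lmf1 then rose in HD-WNT5B by 1.92 (adjusted p = 1.2e-07; 1.13 with the trend removed, adjusted p = 2.2e-06). Gpihbp1, which anchors the lipase on capillaries, was under the filter.

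Lgals3 (chr14:47367751-47386160, plus strand) encodes galectin-3, a sugar-binding protein of phagocytes with damaged lysosomes. Its value was 30.3, 32.3 and 31.4 in WT-Control, 162, 161.5 and 201 in HD-Control, and 111, 161 and 364.5 in HD-WNT5B libraries. All 6 HD libraries were above all WT-Control libraries, and the HD-WNT5B values spanned the HD-Control range. The rise in HD-Control was 2.37 (SE 0.40, adjusted p = 0.00153), at the 99.0 percentile of all genes tested. HD-WNT5B was 2.47 above WT-Control (adjusted p = 4.4e-04; 1.32 with the length and GC trend removed, adjusted p = 0.0105). Against HD-Control it was 0.10 (SE 0.40, adjusted p = 0.824), and the sign turned without HD-WNT5B 3 (-0.37, adjusted p = 0.147), with equal totals (-0.44, adjusted p = 0.338) and with the trend removed (-0.99, adjusted p = 0.0383). Of 5 other listed genes (galectin genes and Lgals3bp, which is not one), 2 rose and 1 fell in HD-Control. Lgals4 rose by 1.59 (adjusted p = 9.1e-05), Lgals3bp, which encodes a galectin-3 ligand, rose by 0.34 (adjusted p = 0.0168), and Lgals1 fell by 1.22 (adjusted p = 7.3e-04).

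Spp1 (chr5:104435118-104441050, plus strand) encodes osteopontin, a secreted phosphoprotein that binds integrins and CD44. It shares 18.75% of its exon bases with Gm42793 on the same strand, so part of its reads could belong to either gene. Its value was 431, 406 and 459.8 in WT-Control, 678.5, 714 and 696 in HD-Control, and 46.5, 305 and 178 in HD-WNT5B libraries, the last from 26, 190 and 83 reads. The 3 groups did not overlap, with HD-Control highest, and HD-WNT5B 1 was lowest by far. The test of HD-Control against WT-Control, which shares 1 estimate of the spread with the scattered HD-WNT5B libraries, gave 0.68 (SE 0.56, adjusted p = 0.367). In a fit of the 6 libraries compared it gave 0.68 (adjusted p = 7.46e-10), a fit that calls 83.8% of all genes, and without HD-WNT5B 1 it gave an adjusted p of 0.0175. HD-WNT5B was lower than HD-Control by -2.32 (SE 0.56, adjusted p = 0.00472; -2.54 with the length and GC trend removed, adjusted p = 0.00296). It was lower than WT-Control by -1.63 (SE 0.56, adjusted p = 0.0254), a call that ended without any 1 WT-Control library (adjusted p = 0.0544 to 0.066), and with the trend removed it was -1.96 (adjusted p = 0.0115). Of 8 genes for osteopontin receptors, 0 rose (also 0 at an unadjusted p under 0.05) and 6 fell in HD-Control in limma, among them Itga9 by 1.28 (adjusted p = 1.7e-06) and Itga5 by 0.81 (adjusted p = 2.1e-05). In HD-WNT5B against HD-Control 4 rose and 2 fell (4 and 0 with the trend removed, in limma), and Itgav rose by 1.33 (adjusted p = 1.2e-07; 2.38 with the trend removed).

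Axl (chr7:25757273-25788705, minus strand) encodes a TAM receptor tyrosine kinase that recognises dying cells through the bridging ligand GAS6. Its value was 3052, 2971 and 3215 in WT-Control, 2362, 2541 and 2425 in HD-Control, and 1207, 1749 and 1578 in HD-WNT5B libraries. The groups did not overlap and fell in that order. HD-Control against WT-Control gave -0.33 (SE 0.12, adjusted p = 0.0551), just short of a call. That difference was called with other scalings (adjusted p = 0.0275 to 0.0395), in a fit of the 6 libraries alone (adjusted p = 8.07e-09) and without HD-WNT5B 1 (adjusted p = 0.00175) or HD-WNT5B 2 (adjusted p = 0.0212). HD-WNT5B was lower than HD-Control by -0.71 (SE 0.12, adjusted p = 6.7e-04; -0.65 with the length and GC trend removed, adjusted p = 0.00127) and lower than WT-Control by -1.04 (SE 0.12, adjusted p = 5.4e-05; -0.95 with the trend removed, adjusted p = 1.2e-04). Of its 4 relatives and ligands, 0 were called in HD-Control with limma, also 0 at an unadjusted p under 0.05, and Tyro3, Gas6, Pros1 and Mertk gave adjusted p-values of 0.119, 0.15, 0.693 and 0.768. Of the 4, 3 fell in HD-WNT5B against HD-Control, and 4 with the trend removed. Mertk, the microglial TAM receptor, fell from 2461 ± 75.8 to 463 ± 202 (log2 -2.52, adjusted p = 6.3e-05; -1.97 with the trend removed), the ligand gene Pros1 fell by 1.28 (adjusted p = 6.6e-05; 0.65 with it removed), and Tyro3 fell by 0.21 (adjusted p = 0.0143; 0.20 with it removed).

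Cst7 (chr2:150570415-150578944, plus strand) encodes cystatin F, an inhibitor of lysosomal cathepsins. Its value was 10.6, 6.46 and 15.3 in WT-Control, 16.7, 16.2 and 9.24 in HD-Control, and 0, 73.9 and 64.3 in HD-WNT5B libraries. These rest on 15, 8 and 21 reads, on 21, 22 and 15, and on 0, 46 and 30. WT-Control and HD-Control overlapped, HD-WNT5B 2 and 3 were above all other libraries, and HD-WNT5B 1 was at 0. There a count of 0 allows a value of up to 5.37 (3 reads, counting error only). Because genes at few reads are scarce in the HD-WNT5B libraries, that limit may be too low. None of the 3 contrasts was called (0.33, 0.58 and 0.91, SE 1.12 each, adjusted p = 0.846, 0.652 and 0.476). Without HD-WNT5B 1 the difference from HD-Control was 2.11 (adjusted p = 0.00108) and from WT-Control 2.44 (adjusted p = 4.83e-04). Without HD-WNT5B 2 or 3 the difference from HD-Control was -0.23 or -0.14. With the length and GC trend removed it was -0.67 (adjusted p = 0.6), and -0.435 (adjusted p = 0.732) from WT-Control. Of 8 genes for other cystatins and cathepsin targets, 2 rose in HD-Control and 0 fell in limma (3 and 0 at an unadjusted p under 0.05). Ctsl, a lysosomal protease gene with 26.85% of its exon bases shared with other genes, rose by 0.93 (adjusted p = 1.4e-04), and the cystatin gene Cstb rose by 0.65 (adjusted p = 2.9e-04).

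Itgax (chr7:128129547-128150657, plus strand) encodes the integrin chain CD11c. Its value was 57.0, 45.2 and 65.7 in WT-Control, 35.9, 44.98 and 41.9 in HD-Control, and 60.8, 0 and 40.7 in HD-WNT5B libraries, with reads from 0 to 90. HD-Control lay below WT-Control by a narrow margin, and the HD-WNT5B values ran from below both groups to within the WT-Control range. None of the contrasts was called (-0.42, -1.11 and -1.52, SE 1.001 each, adjusted p = 0.779, 0.336 and 0.193). In a fit of the 6 libraries alone the difference of HD-Control from WT-Control gave an adjusted p of 0.0307. HD-WNT5B 2 was at 0, which allows a value of up to 4.82 (3 reads, counting error only). Because genes at few reads are scarce in the HD-WNT5B libraries, that limit may be too low. Without HD-WNT5B 2, HD-WNT5B against HD-Control gave 0.27 (adjusted p = 0.351). With the length and GC trend removed HD-WNT5B was at -0.88 against HD-Control and -1.27 against WT-Control, neither of them called. Of 4 other beta 2 integrin genes, 1 rose and 1 fell in HD-Control. Itgad, which encodes CD11d, rose from 14.5 ± 3.47 to 321 ± 10.7 (log2 4.23, adjusted p = 2.2e-06), and Itgam, which encodes CD11b, fell from 2058 ± 28.6 to 219 ± 10.2 (log2 -3.22, adjusted p = 0.00826). Itgad shares 19.73% of its exon bases with genes on both strands, and Itgam shares 68.67% with Gm49368 on the same strand. Reads in the shared bases cannot be assigned, for Itgam whatever the strand, and the library kit does not mark strand.

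**Figure D3:**
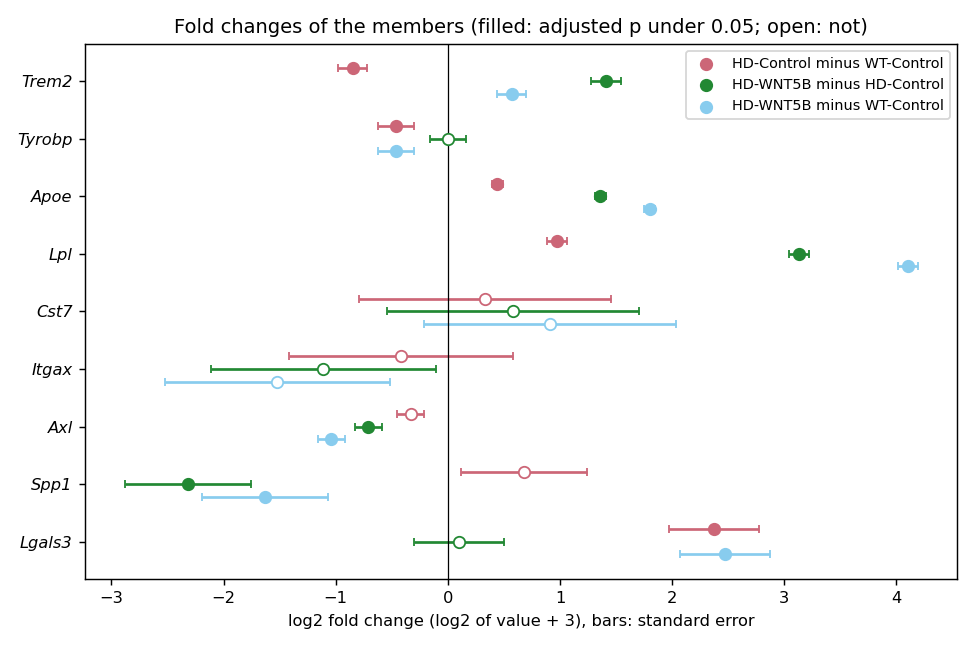
Fold change of each member on the log2(value + 3) scale in the 3 contrasts; bars are standard errors of the fit, and filled points passed an adjusted p under 0.05. Lpl lies at 0.97, 3.13 and 4.10, Spp1 lies on opposite sides of 0 in HD-Control (0.68, open) and HD-WNT5B (-2.32, filled), and the bars of Cst7 and Itgax are over 1 unit long on each side.

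Divided by coding transcript length, the order of levels was compared within a group. In WT-Control it ran from Apoe at 43376.5 per kilobase through Lpl at 1338, Tyrobp at 1194, Axl at 722, Trem2 at 699, Spp1 at 287, Lgals3 at 22.1 and Itgax at 13.8 to Cst7 at 10.9, and the ranges of Axl and Trem2 overlapped, as did those of Itgax and Cst7. In HD-Control Spp1 (462 per kilobase) stood above Trem2 (388.5), with no overlap. In HD-WNT5B Lpl (23064) was second to Apoe (151567), Trem2 (1044) and Tyrobp (879.5) overlapped, and so did Lgals3 (149) and Spp1 (117), Spp1 and Cst7 (46.7), and Cst7 and Itgax (8.37). The length trend of the HD-WNT5B libraries bears on that last order, and its part was not tested.

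The genes listed as homeostatic microglia genes were mostly lower in HD-Control. Not all of them are confined to the resting state, Aif1, Ptprc and the C1q genes among them. Of 18, all tested, 0 rose and 15 fell against WT-Control in limma (0 and 16 at an unadjusted p under 0.05), with a median of -1.91, and 3 were not called (P2ry13, C1qc and Ptprc, named after their values were seen). P2ry13 was 988.1 or above in WT-Control and 190.2 or below in HD-Control (log2 -2.43, SE 1.02, adjusted p = 0.0863). Ptprc was lower in all 3 HD-Control libraries (-0.47, SE 1.04, adjusted p = 0.757), and C1qc overlapped (0.03). These tests share 1 estimate of the spread with the scattered HD-WNT5B libraries. The summed value of the 18 was 43577 to 44153 in WT-Control, 19321 to 19486 in HD-Control and 56084 to 61397 in HD-WNT5B, where Cx3cr1 (mean 19939.8) and C1qa (mean 10330.0) hold much of the sum. Gene by gene, 6 of the 18 were higher and 11 lower in HD-WNT5B than in WT-Control, with a median of -1.24 (4 and 13 with the length and GC trend removed, median -1.25). In HD-Control against WT-Control, P2ry12, a purine receptor of resting microglia, fell by 2.63 (adjusted p = 3.4e-06) and Tmem119 by 2.51 (adjusted p = 4.3e-06). In the same contrast Fcrls fell by 4.80 (adjusted p = 4.6e-06) and Cx3cr1 by 3.01 (adjusted p = 3.4e-08). Set against Csf1r, the growth factor receptor of microglia, the ratio of Trem2 was 0.0903 to 0.0975 in WT-Control and 0.104 to 0.121 in HD-Control, and that of Tyrobp was 0.0856 to 0.0907 and 0.134 to 0.137. Of the 18, 9 rose in HD-WNT5B against HD-Control and 2 fell, with a median of 0.53 (9 and 4, median 0.46, with the length and GC trend removed). Cx3cr1, the fractalkine receptor, went from 588 ± 13.4 to 19939.8 ± 1666 (log2 5.07, adjusted p = 5.2e-11; 5.49 with the trend removed), and Aif1, which encodes IBA1, from 73.1 ± 8.77 to 1929 ± 140.2 (log2 4.67, adjusted p = 1.1e-08; 3.12 with the trend removed). Ptprc and P2ry13, both of them markers of the same cells, were at 0 in some HD-WNT5B libraries.

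**Figure D4:**
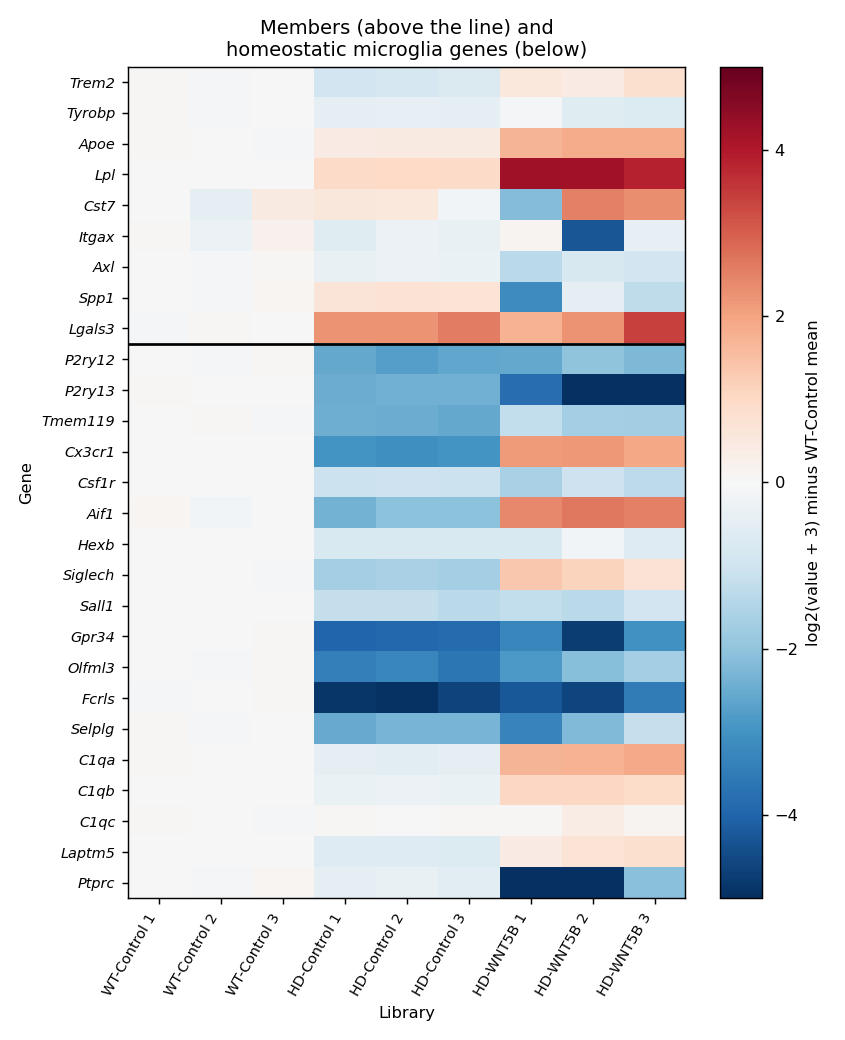
Difference of log2(value + 3) from the WT-Control mean in each library, for the 9 members (above the line) and 18 homeostatic microglia genes (below); red is higher, blue is lower, and colours saturate at the ends of the bar. In the HD-Control columns the lower block is blue for nearly all genes while the members hold both colours, with Lgals3 red and Trem2 blue. In the HD-WNT5B columns Cx3cr1 and Aif1 are red while P2ry13 and Ptprc are blue.

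Other disease-associated microglia genes outside the 10 were read from lists of the early stage, which does not need TREM2, and the late stage, which does. Of 7 early-stage genes 3 rose and 1 fell in HD-Control. Timp2, an inhibitor of metalloproteinases, rose by 1.16 (adjusted p = 3.0e-07), Cstb rose as given above, Fth1, the ferritin heavy chain, rose by 0.29 (adjusted p = 0.00532), and Lyz2, the lysozyme of myeloid cells, fell by 1.30 (adjusted p = 0.00282). In HD-WNT5B against HD-Control 5 rose and 1 fell (3 and 2 with the length and GC trend removed). Fth1 rose from 106993 ± 1295.5 to 745953 ± 70290.1 (log2 2.80, adjusted p = 1.1e-09; 1.88 with the trend removed), and the cathepsin genes Ctsd and Ctsb rose by 2.41 and 1.41 (adjusted p = 1.7e-10 and 5.4e-08; 1.84 and 1.95 with the trend removed). Ctsd shares 34.37% of its exon bases with other genes.

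Of 17 tested late-stage genes 6 rose and 2 fell in HD-Control, with a median of 0.17. Ch25h, which makes 25-hydroxycholesterol, rose from 9.33 ± 4.68 to 418 ± 24.0 (log2 5.16, adjusted p = 1.1e-05), and Bhlhe40, a transcription factor gene, rose by 0.75 (adjusted p = 1.1e-04). Lilrb4a, an inhibitory receptor gene with 35.85% of its exon bases shared, rose from 9.32 ± 2.49 to 68.6 ± 29.9 (log2 2.45, adjusted p = 0.00183). In HD-WNT5B against HD-Control 6 rose and 6 fell, and 6 and 7 with the length and GC trend removed. Ctsz, cathepsin Z, rose by 2.32 (adjusted p = 2.0e-09; 1.12 with the trend removed), Serpine2, a protease inhibitor gene, rose by 0.87 (adjusted p = 3.0e-08; 0.94 with it removed), Cd63, a lysosomal membrane protein gene, rose by 1.46 (adjusted p = 2.2e-06; 0.43 with the trend removed), and Ank, a pyrophosphate transporter gene, fell by 1.52 (adjusted p = 5.6e-09; 1.36 with it removed). Of 7 genes of the pathway downstream of Dectin-1, the receptor that Clec7a encodes, 1 rose and 0 fell in HD-Control in limma (3 and 0 at an unadjusted p under 0.05), and 2 rose and 5 fell in HD-WNT5B, a split that was the same with the trend removed. Card9, its adaptor, rose from 69.7 ± 9.98 to 778.5 ± 132 (log2 3.42, adjusted p = 9.1e-07; 2.68 with the trend removed), and Rel, an NF-kappaB subunit gene, fell by 3.13 (adjusted p = 1.4e-06; 2.02 with it removed). Of 9 macrophage and lysosome transcription factor genes 2 rose and 1 fell in HD-Control and 2 rose and 4 fell in HD-WNT5B against HD-Control (2 and 3 with the trend removed). Irf8 fell by 0.78 (adjusted p = 0.00136) and Tfe3 rose by 0.58 (adjusted p = 4.7e-04) in the first, and in the second Tfe3 fell by 1.70 (adjusted p = 1.1e-07; 1.97 with the trend removed) and Tfeb rose by 1.77 (adjusted p = 9.7e-07; 0.99 with it removed).

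**Figure D5:**
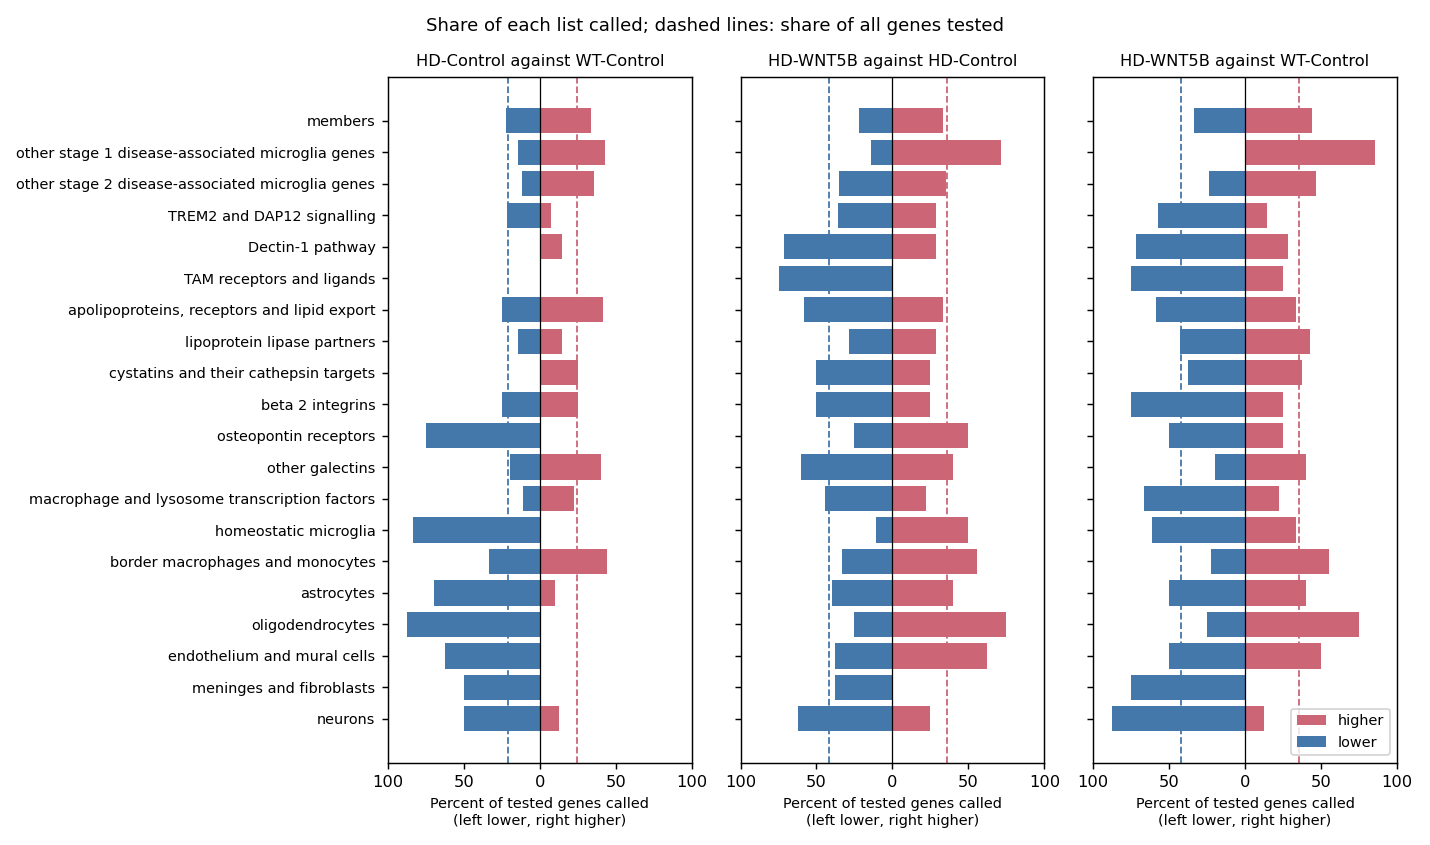
Percent of the tested genes of each list called higher (right, red) or lower (left, blue) at adjusted p under 0.05 in the 3 contrasts, with dashed lines at the share of all genes. In HD-Control against WT-Control the homeostatic microglia and oligodendrocyte genes lie mostly on the lower side, while the members (3 higher and 2 lower of 9) lie near the dashed lines (24.5% and 20.7%) in both directions.

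Markers of other cells that can express the members moved in the same contrasts. Of all genes tested, 45.1% were called in HD-Control against WT-Control and 77.5% in HD-WNT5B against HD-Control. Of 9 tested markers of border macrophages and monocytes 4 rose and 3 fell in HD-Control, and 5 rose and 3 fell in HD-WNT5B against HD-Control (3 and 4 with the length and GC trend removed). The 12 listed markers summed to 458 to 469 in WT-Control, 1142 to 1303 in HD-Control and 2289.5 to 2571 in HD-WNT5B. S100a8 and S100a9, which neutrophils also express, rose with the sum: S100a8 went from 2.01 ± 0.53 to 274 ± 28.8 and 689.8 ± 79.9. With the trend removed, the HD-WNT5B values of S100a8 and S100a9 turned to below those of HD-Control (-0.74, adjusted p = 0.0195, and -1.01, adjusted p = 0.00674). The other defining markers went both ways in HD-WNT5B against HD-Control. Cd163 was 2.73-fold and Pf4 9.80-fold higher, both called (log2 2.03, adjusted p = 8.2e-05, and 1.24, adjusted p = 0.0307, with the trend removed), while Mrc1, Ccr2, Ly6c2 and Plac8 were at 0 in all 3 HD-WNT5B libraries. Mrc1 was 38.2 or above in the other 6 libraries, Ccr2 5.54 or above, and Ly6c2 and Plac8 were at 0.704 to 5.65. The lowest value of Ccr2 and those of Ly6c2 and Plac8 are near the 4.82 to 6.43 that 3 reads are worth in HD-WNT5B. The 0 of Ccr2, Ly6c2 and Plac8 therefore shows little. Genes at few reads are also scarce in the HD-WNT5B libraries, as given above, which bears on the 0 of Mrc1 too. Of 10 astrocyte markers 1 rose and 7 fell in HD-Control and 4 rose and 4 fell in HD-WNT5B (5 and 4 with the trend removed), with summed values of 332391 to 335325, 213309.7 to 214726 and 196586 to 213609.4. Of 8 oligodendrocyte markers 0 rose and 7 fell in HD-Control in limma and 6 rose and 2 fell in HD-WNT5B. Of 8 markers of endothelium and mural cells 0 rose and 5 fell and then 5 rose and 3 fell, of 8 markers of meninges and fibroblasts 0 rose and 4 fell and then 0 rose and 3 fell, and of 8 neuron markers 1 rose and 4 fell and then 2 rose and 5 fell. At an unadjusted p under 0.05 in limma, the counts of 0 rises became 0 for oligodendrocytes, 1 for endothelium and mural cells, and 0 and 0 for meninges and fibroblasts. With the trend removed, the HD-WNT5B counts of rises and falls were 6 and 2, 5 and 3, 0 and 3, and 3 and 5 for oligodendrocytes, endothelium and mural cells, meninges and fibroblasts, and neurons. The part of these cell types in the members' changes was not tested.

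Last, the genes whose pattern over the 9 libraries lay nearest each member were listed, by the root mean square difference of log2 values centred on each gene's mean. For Apoe the nearest was Prkrip1 (0.033), for Axl Tmem68 (0.049), for Tyrobp Krt10 (0.055), for Trem2 Trmt61a (0.060) and for Lpl Upf3b (0.108). The nearest genes of the other members lay farther away: Pgm2 for Spp1 (0.204), Esm1 for Cst7 (0.250), Galr1 for Itgax (0.269) and Tubb6 for Lgals3 (0.373). No member was among the 3 nearest genes of another member.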

How the data were processed

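Poly(A) RNA of 9 mouse brain libraries was analysed. The authors deposited 1 normalised decimal signal value per gene and library. From the values, they are estimated reads divided by 1 factor per library, with no division by length (97.55 to 98.7% of low values whole, tolerance 0.01). Per the submitters' processing notes, reads were aligned with STAR to mm10, and the counter, annotation and normalising program are not stated in the sources used here. The library kit named in the labels' protocols does not mark strand. Symbols, positions, lengths and overlaps came from GENCODE M21 (all 21853 identifiers matched). Tested genes reached a value of 10 in 3 or more libraries. limma 3.58.1 (R 4.3.3) was fitted to log2(value + 3) with a mean per group over 9 libraries (6 residual degrees of freedom) and a variance trend, and genes were called at Benjamini-Hochberg adjusted p under 0.05. Fold changes are on that scale, which understates low genes, and ± is the SD over 3 libraries. The procedure was tested on simulated data. The members and lists were chosen with earlier results of these data known. From each list, at most 4 genes with the smallest p per contrast are named. Some genes that were not called, not tested or at 0 are named besides, and these were not picked by p. Same-numbered libraries of different groups did not deviate together (correlations -0.078 to 0.021). Sums and ratios per library and promoter motifs were computed as descriptions.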

Additional observations from a re-analysis of the deposited data

How the results depend on the processing

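The alternatives covered scaling, filter, added constant, weights per group, fits of the 6 libraries compared, a replicate block, single libraries left out and, chosen after seeing the data, removal of the length and GC trend. The planned edgeR and DESeq2 fits were not run, because the deposited values are normalised and some values near 0 are not whole reads, so they were not treated as counts. Of 537 member values under the alternatives, 487 kept direction and side of the threshold, 15 gained a call, 21 lost one and 14 turned sign. Genes called in HD-Control against WT-Control rose from 6957 to 12779 with a weight per group and 12908 with only the 6 libraries. In that contrast the members called lower, 2 as reported, were 1 without the filter, 4 with the 6 libraries and 1 with the replicate block, which ended the call of Tyrobp (adjusted p = 0.0634) and changed no other call of a member. Single libraries left out gave 1 to 3 (1 without any of the 6 WT-Control or HD-Control libraries). In HD-WNT5B against WT-Control the members called lower were 1 with the 6 libraries and 1 to 3 with single libraries left out. The share of all genes called in these fits is not given here, so the counts cannot be set against it. In HD-WNT5B against HD-Control, removal of the length and GC trend gave 1 member higher and 4 lower. It turned the sign of Trem2 (-0.22), Cst7 (-0.67) and Lgals3 (-0.99) in that contrast and of Trem2 (-1.13) and Cst7 (-0.435) in HD-WNT5B against WT-Control. Scaling to equal totals moved the median of all genes by -0.54 in HD-WNT5B against HD-Control and -0.56 against WT-Control, so that 32.03% in place of 46.19% and 31.65% in place of 46% of calls were higher, and turned Lgals3 (-0.44, against HD-Control) and Trem2 (-0.011, against WT-Control). With single libraries left out, HD-WNT5B against HD-Control ranged from -0.187 to 0.105 for Tyrobp (above 0 without HD-Control 2, HD-WNT5B 2 or HD-WNT5B 3), from -0.231 to 2.11 for Cst7 (below 0 without HD-WNT5B 2 or 3), from -1.93 to 0.273 for Itgax (above 0 without HD-WNT5B 2) and from -0.373 to 0.472 for Lgals3 (below 0 without HD-WNT5B 3). Where a library was left out, its group kept 2. With a weight per group Trem2 in HD-WNT5B against WT-Control gave an adjusted p of 0.0812. The cause of these shifts was not tested. Cst7 and Itgax rest on 0 to 90 reads per library, and their HD-WNT5B libraries differ widely.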
